A study of Mus musculus with 17 samples.

Results

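The cathepsins Ctsa, Ctsb, Ctsc, Ctsd, Ctsh, Ctsk, Ctsl, Ctss and Ctsz and the inhibitor cystatin C (Cst3) were taken by gene symbol, which gave 10 genes of the 31647 features counted in the heart. All 10 had enough counts to be tested. RNA came from male wild-type C57BL/6J mice aged 8 to 11 weeks at surgery. Myocardial infarction (MI) was induced in 9 of them by tying off the left anterior descending artery of the heart for good, and the infarct zone (IZ) was dissected from the left ventricle 5 d later. The other 8 were sham mice, which had the surgery without the tie and gave left ventricular tissue at 5 d. Both groups received isoflurane and buprenorphine for surgery and no other agent is named, and uninjured tissue of the infarcted hearts was not analysed here. Transcripts were read by massive analysis of cDNA ends (MACE), which sequences the 3′ end of polyadenylated mRNA and tags each molecule with an identifier.

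Cathepsins are proteases of the lysosome, the compartment in which cells break down engulfed and worn-out material. They are made as inactive precursors, sorted to the lysosome by mannose 6-phosphate receptors and activated there by removal of a propeptide, and some are also secreted and cut collagen and elastin outside the cell. Cystatin C is a small secreted protein that blocks cathepsins of the cysteine type by sitting in their active site. Macrophages are known for high cathepsin levels, and the infarcted heart fills with them in the first week while dead muscle is cleared and a scar is laid down.

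Total counts per library ran from 1237675 to 4738307, and cardiac markers were present in all of them. Summed markers of cardiomyocytes lay between 60389 and 72612 CPM in sham, where CPM is the usual rescaling of a gene's count by the size of its library, here after a correction for composition (TMM). They lay between 2805 and 6599 CPM in 8 IZ libraries, while IZ replicate 1 held 27313 CPM. Mitochondrially encoded features took 22.9 to 32.4% of the counts in sham, 19.5% in IZ replicate 1 and 4.22 to 6.78% in the other IZ libraries. IZ replicate 1 therefore stood between the groups by both measures, and results that rest on it are given with and without it.

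The promoters of these genes differ in the short letters they hold near the transcription start, and those of 5 cathepsins with a match are shown so that their expression can be read beside them. RefSeq (build GRCm38.p6) gave promoters for 8 of the 10 genes, each 300 bases long and running from 250 bases before to 50 after an annotated start. Ctsa had entries for both of its listed starts. The promoter of the first (chr2:164832622-164832921, plus strand), which lies by the gene start given below, held no match and is not shown. Capitals mark CACGTG, the core of the sites bound by the MiT/TFE factors that control lysosomal genes, or ACTTCCTC, which reads GAGGAAGT on the other strand and is of the type bound by the myeloid factor PU.1.
Ctss (chr3:95526536-95526835, plus strand): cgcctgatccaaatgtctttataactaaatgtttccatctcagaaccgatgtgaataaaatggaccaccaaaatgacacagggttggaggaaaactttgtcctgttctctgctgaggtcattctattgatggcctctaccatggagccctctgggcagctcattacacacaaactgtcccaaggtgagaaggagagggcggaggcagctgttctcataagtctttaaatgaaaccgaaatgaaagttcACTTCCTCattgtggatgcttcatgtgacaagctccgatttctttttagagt
Ctsc (chr7:88277835-88278134, plus strand): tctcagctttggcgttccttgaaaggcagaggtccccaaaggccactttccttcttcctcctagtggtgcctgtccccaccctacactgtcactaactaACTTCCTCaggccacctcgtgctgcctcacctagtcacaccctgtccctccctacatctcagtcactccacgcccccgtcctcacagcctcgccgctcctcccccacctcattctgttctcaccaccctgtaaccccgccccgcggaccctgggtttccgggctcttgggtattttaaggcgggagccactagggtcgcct
Ctsd (chr7:142387778-142388077, minus strand): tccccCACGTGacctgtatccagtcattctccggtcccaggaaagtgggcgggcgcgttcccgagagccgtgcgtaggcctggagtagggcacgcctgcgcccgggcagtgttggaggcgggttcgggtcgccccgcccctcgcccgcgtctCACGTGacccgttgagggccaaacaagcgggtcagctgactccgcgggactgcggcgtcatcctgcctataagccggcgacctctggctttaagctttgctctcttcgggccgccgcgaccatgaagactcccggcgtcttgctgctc
Ctsa, the second listed start (chr2:164833523-164833822, plus strand): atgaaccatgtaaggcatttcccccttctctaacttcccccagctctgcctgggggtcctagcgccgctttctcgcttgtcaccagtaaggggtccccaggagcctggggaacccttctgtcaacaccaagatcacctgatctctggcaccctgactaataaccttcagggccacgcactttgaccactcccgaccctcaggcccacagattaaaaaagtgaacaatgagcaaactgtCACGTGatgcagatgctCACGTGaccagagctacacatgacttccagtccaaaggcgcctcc
Ctsl (chr13:64370471-64370770, minus strand): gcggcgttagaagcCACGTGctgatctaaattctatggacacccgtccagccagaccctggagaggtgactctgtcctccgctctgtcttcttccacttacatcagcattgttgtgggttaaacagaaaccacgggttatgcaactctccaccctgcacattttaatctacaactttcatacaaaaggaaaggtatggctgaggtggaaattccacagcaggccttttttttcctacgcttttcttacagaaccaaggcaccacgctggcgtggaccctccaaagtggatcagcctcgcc

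Both strands were searched. CACGTG was found at bases 6 to 11 and 153 to 158 of the Ctsd promoter, at bases 239 to 244 and 256 to 261 of the Ctsa promoter shown, and at bases 15 to 20 of the Ctsl promoter. Of all 32851 promoters in the table, 7.15% hold that hexamer. GAGGAAGT was found at bases 249 to 256 in Ctss and at bases 100 to 107 in Ctsc, and 3.20% of all promoters hold it. TGACTCA, the consensus of AP-1, was in none of the 9 cathepsin and cystatin promoters and in 5.20% of all promoters. Such matches describe letters only.

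All 9 cathepsins rose in the IZ, by 3.11-fold for Ctsa to 22.1-fold for Ctss, and in each of them every IZ library lay above every sham library. Cst3 rose least, by 1.31-fold, and its groups overlapped. The test across all genes was edgeR's quasi-likelihood F-test with Benjamini-Hochberg adjustment, which called 69.5% of 12301 tested genes at an adjusted p under 0.05, 36.3% of them as higher and 33.1% as lower. Against that background 10 of 10 genes were called higher. In 16 of 27 alternatives the count was 9, since Cst3 lost its call there. Ctsk passed the filter on low counts only through the IZ, so its call is not to be read against the 36.3%. Every IZ library lay above every sham library for 16.6% of all tested genes and for 9 of these 10. The median log2 fold change was 2.52 over the 9 cathepsins, 2.31 with Cst3 and 0.05 over all tested genes. These are bulk tissues, so a larger number of cells that express a gene and more of its RNA per cell cannot be told apart.

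**Figure D1:**
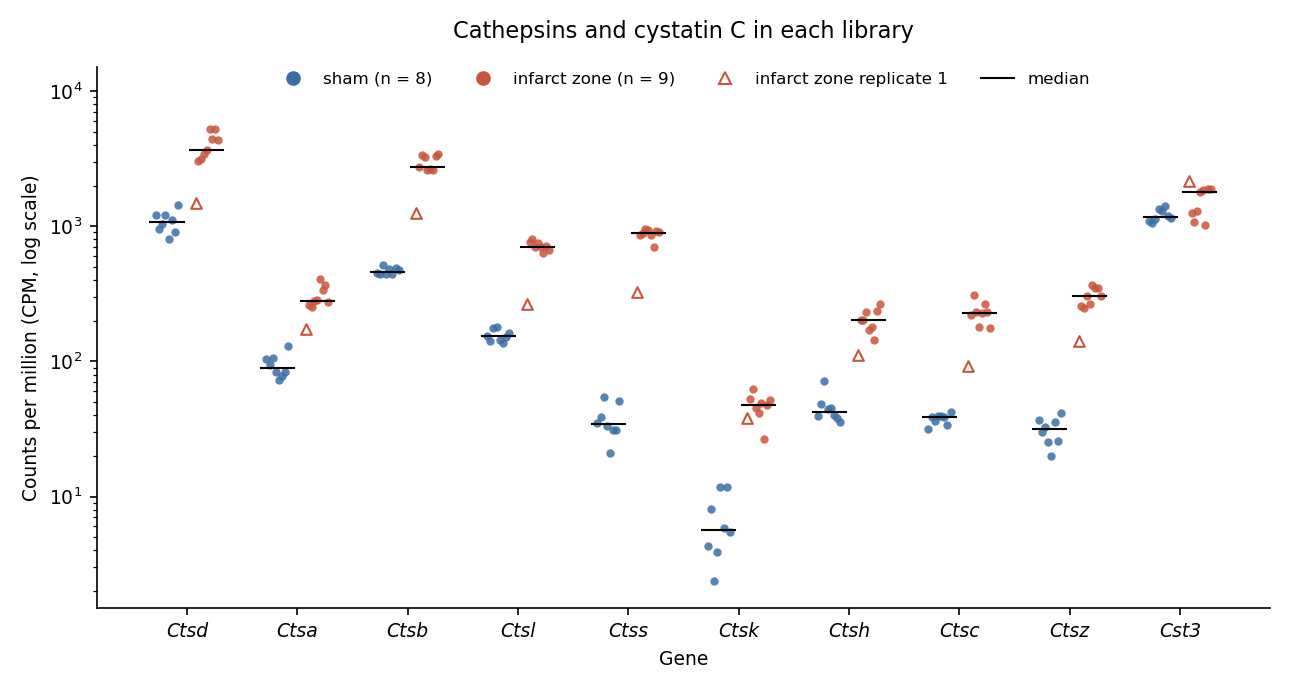
CPM of each gene (log axis) in 8 sham (blue) and 9 IZ libraries (red), with IZ replicate 1 as an open triangle and the group median as a black line. The groups do not overlap for any of the 9 cathepsins, from Ctss (at most 54.9 CPM in sham and at least 328 CPM in the IZ) to Ctsa, whereas those of Cst3 do.

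Cathepsin D and cathepsin A are the members that are not cysteine proteases. Ctsd (chromosome 7, 142375911 to 142388038, minus strand, mm10) encodes the main aspartic protease of the lysosome. Its sham libraries spanned 804 to 1433 CPM with a median of 1081 CPM. Its IZ libraries were 1495, 3050, 3159, 3439, 3653, 5221, 4465, 5212 and 4340 CPM in the order of replicates 1 to 9. Replicate 1 lay just above the highest sham library and the other 8 lay well above it. Ctsd rose by a log2 fold change of 1.80 (SE 0.22, adjusted p = 1.70e-07 by edgeR). Ctsa (chromosome 2, 164832873 to 164841032, plus strand) encodes a serine carboxypeptidase that also shields beta-galactosidase and neuraminidase 1 from breakdown. It spanned 73.3 to 129 CPM with a median of 88.7 CPM in sham. In the IZ it spanned 173 to 408 CPM with a median of 279 CPM, and it rose by a log2 fold change of 1.64 (SE 0.16, adjusted p = 3.50e-09). Ctsa and Ctsd thus had the smallest log2 fold changes among the cathepsins. Pltp and Neurl2 overlap Ctsa on the other strand at mean levels of 79.8 and 9.17 CPM in the IZ, and whether reads were counted by strand is not given in the sources used here.

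Ctsb and Ctsl were the most abundant cysteine cathepsins of the sham ventricle. Ctsb (chromosome 14, 63122462 to 63145923, plus strand) encodes a protease that can cut inside proteins and also trim them from the end. Its sham libraries lay close together, from 446 to 514 CPM with a median of 462 CPM. The IZ libraries held 1249 CPM in replicate 1 and 2596 to 3430 CPM in the others. Ctsb rose by a log2 fold change of 2.58 (SE 0.19, adjusted p = 4.65e-11). The last 500 bases of the Ctsb transcript match Fdft1, a cholesterol synthesis gene on the opposite strand, at 100% identity, and Fdft1 itself averaged 18.9 CPM in sham and 5.83 CPM in the IZ. Ctsl (chromosome 13, 64359337 to 64370890, minus strand) encodes a broad endopeptidase. It spanned 137 to 178 CPM with a median of 153 CPM in sham. In the IZ it was 267 CPM in replicate 1 and 630 to 812 CPM in the others, and it rose by a log2 fold change of 2.10 (SE 0.17, adjusted p = 2.78e-10).

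Cathepsin S changed more than any other member. Ctss (chromosome 3, 95526786 to 95556403, plus strand) encodes an elastin-cutting protease that stays active near neutral pH and trims the invariant chain in antigen-presenting cells. The sham libraries held 35.2, 39.0, 54.9, 33.1, 21.0, 31.3, 31.3 and 51.2 CPM, from replicate 1 to replicate 8. The IZ libraries held 328, 863, 889, 950, 933, 858, 702, 918 and 905 CPM. Replicate 1 was the lowest of them, and still lay far above every sham library. Ctss rose by a log2 fold change of 4.46 (SE 0.23, adjusted p = 4.17e-13), and 60 of the 12301 tested genes (0.488%) had a higher log2 fold change. Without IZ replicate 1 the log2 fold change was 4.54. The reads behind these levels were 41 to 93 counts per sham library and 914 to 6258 counts per IZ library.

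Ctsk lies 17423 bases upstream of Ctss on the same strand of chromosome 3 (95499256 to 95509362) and encodes a collagen-cutting cathepsin known best from bone-resorbing osteoclasts. It was the least abundant member in both groups. In sham it spanned 2.35 to 11.8 CPM with a median of 5.66 CPM, which rests on 3 to 31 counts per library. In the IZ it spanned 26.9 to 62.2 CPM with a median of 47.6 CPM, and here the lowest library was replicate 7, not replicate 1. Ctsk rose by a log2 fold change of 2.73 (SE 0.23, adjusted p = 4.04e-10). Its sham counts alone did not meet the filter on low counts, so it was tested only through the IZ and its call carries that limit. With no filter the log2 fold change was 2.78. Among osteoclast markers, Calcr had no count in any of the 17 libraries and Ocstamp and Dcstamp had none in sham, with at most 5 and 3 counts per IZ library. Oscar had at most 3 counts per sham library and 4 per IZ library, whereas Mmp9, which neutrophils and macrophages also make, had 0 to 4 counts per sham library and 2 to 192 per IZ library. The only osteoclast marker with enough counts to be tested was Acp5, an acid phosphatase that macrophages also make, with 0 to 6 counts per sham library and 35 to 309 per IZ library. The neighbours Ctsk and Ctss changed by different amounts, since the log2 ratio of Ctsk to Ctss fell by 1.59 (exact permutation test, adjusted p over 45 pairs 0.00191).

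The remaining cathepsins trim proteins from their ends. Ctsz (chromosome 2, 174427493 to 174439039, minus strand), which encodes a carboxypeptidase also called cathepsin X, spanned 20.0 to 41.3 CPM with a median of 31.6 CPM in sham. It was 141 CPM in IZ replicate 1 and 247 to 367 CPM in the other IZ libraries. Its log2 fold change of 3.21 (SE 0.18, adjusted p = 1.80e-12) was the next highest after that of Ctss. Nelfcd overlaps Ctsz on the other strand and averaged 14.3 CPM in the IZ. Ctsc (chromosome 7, 88278085 to 88310888, plus strand) encodes dipeptidyl peptidase I, which activates the serine proteases stored in the granules of neutrophils, mast cells and cytotoxic lymphocytes. It spanned 31.4 to 42.4 CPM in sham with a median of 38.8 CPM. In the IZ it was 92.2 CPM in replicate 1 and 175 to 310 CPM in the others, a log2 fold change of 2.52 (SE 0.18, adjusted p = 3.10e-11). None of the 11 granule proteases with a feature (Ctsg, Prtn3, Gzma, Gzmb and Cma1 among them) had enough counts to be tested, and their summed level was 2.02 to 6.16 CPM in sham and 4.83 to 11.6 CPM in the IZ. Ctsh (chromosome 9, 90054152 to 90076089, plus strand) encodes an aminopeptidase. It spanned 35.8 to 71.4 CPM in sham and 112 to 266 CPM in the IZ with medians of 42.4 and 203 CPM, a log2 fold change of 2.11 (SE 0.17, adjusted p = 2.33e-10).

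Cystatin C had the highest mean CPM of the 10 transcripts in sham, with Ctsd next to it, and its fold change was the smallest of the 10. Cst3 (chromosome 2, 148871722 to 148875692, minus strand) held 1057 to 1402 CPM in sham with a median of 1174 CPM. In the IZ it was 2176, 1253, 1071, 1294, 1787, 1842, 1024, 1898 and 1877 CPM in the order of replicates 1 to 9. These values fell in 2 ranges, with 5 libraries above every sham library, 3 within the sham range and 1 below it. Replicate 1, which was lowest for 8 of the 9 cathepsins, was the highest for Cst3. The log2 fold change of 0.39 (SE 0.17) was called by a narrow margin (adjusted p = 0.0473), and 37.1% of all tested genes had a higher log2 fold change. The call was kept in 11 of 27 alternatives, with an adjusted p between 9.02e-09 and 0.121. With scaling by total counts alone, which moves the median of all genes by 1.08, its log2 fold change was 1.44. Without IZ replicate 1 the log2 fold change was 0.28 with an adjusted p of 0.0603, and with DESeq2 it was 0.38 with an adjusted p of 0.0190.

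The cathepsins did not rise by equal amounts. Their log2 ratios to each other and to Cst3 were compared between the groups within each library, which does not depend on the scaling, by an exact two-sided permutation test over all 24310 splits with adjustment over 45 pairs. Of the 36 pairs of cathepsins, 27 changed. Ctss rose relative to all 8 other cathepsins, by 1.26 against Ctsz to 2.82 against Ctsa on the log2 scale, each with an exact p of at most 0.00123. Ctsz rose relative to Ctsb by 0.65 (exact test, adjusted p = 0.00133) and relative to Ctsd by 1.44 (exact test, adjusted p = 1.54e-04). In the 9 cathepsin pairs that did not pass the test the ratio moved by at most 0.41. Among these pairs, with adjusted p from the exact test, were Ctsb with Ctsc (0.09, adjusted p = 0.499), Ctsh with Ctsl (0.03, adjusted p = 0.824) and Ctsa with Ctsd (-0.12, adjusted p = 0.300). A p that misses the threshold does not show that such a pair rose equally.

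The make-up of the cathepsin counts is given as a description of these ratios. Of all cathepsin counts 55.0 ± 4.33% (SD, n = 8) came from Ctsd in sham, and 41.0 ± 5.25% (SD, n = 9) in the IZ. The share of Ctsb was 24.2 ± 3.21% in sham and 31.1 ± 3.61% in the IZ. Ctss went from 1.87 ± 0.439% to 8.98 ± 1.12%, with sham libraries between 1.28 and 2.69% and IZ libraries between 7.38 and 10.5%. Ctsz went from 1.57 ± 0.243% to 3.18 ± 0.334%, and Ctsl stayed in the same range with 7.99 ± 0.786% and 7.37 ± 1.09%. In IZ replicate 1 the shares of Ctss and Ctsb lay within those of the other IZ libraries, and Ctsa took more of the sum there (4.45%) than in any other IZ library (2.63 to 3.82%).

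**Figure D2:**
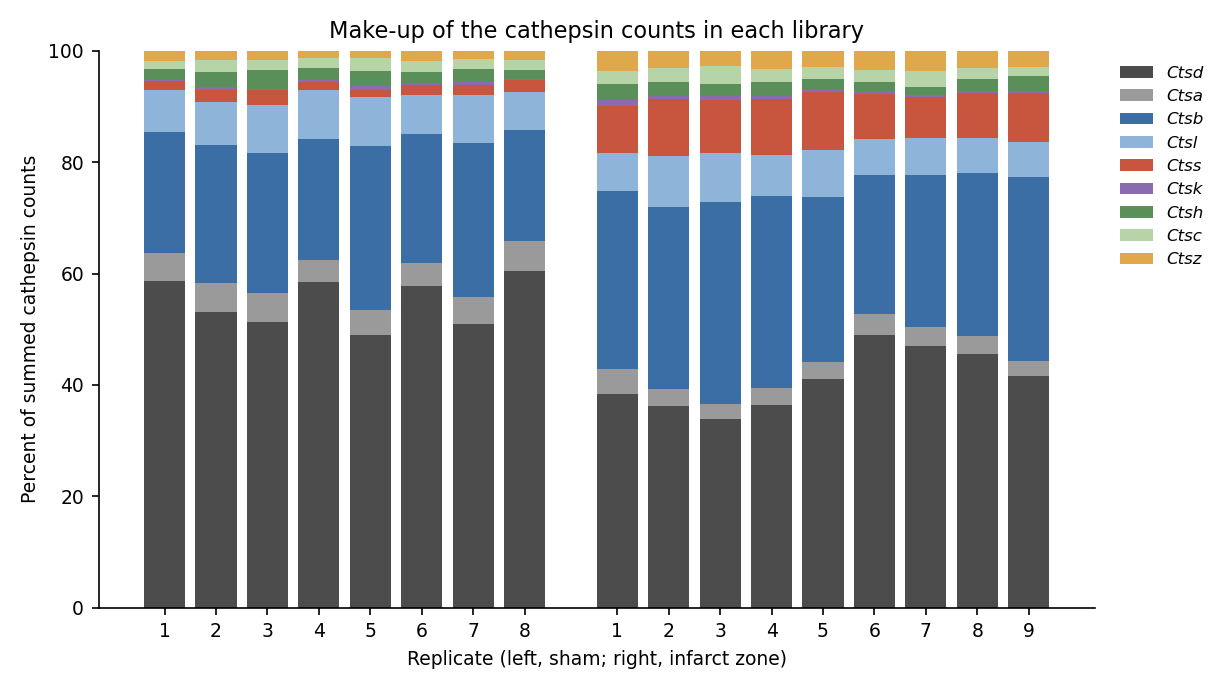
Share of each of the 9 cathepsins in the summed cathepsin counts (percent) of each library, with 8 sham libraries on the left and 9 IZ libraries on the right. The Ctss band (red) is at most 2.69% of the bar in sham and at least 7.38% in the IZ, and Ctsd (dark grey) takes less of each bar on the right on average.

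Levels within a group were ordered and each gene was compared with its neighbour by an exact sign-flip test on the within-library log2 ratio, with adjustment over 18 neighbour pairs. By mean CPM the order in sham was Cst3, Ctsd, Ctsb, Ctsl, Ctsa, Ctsh, Ctsc, Ctss, Ctsz and Ctsk. Cst3 did not differ from Ctsd beyond the spread between libraries (exact test, adjusted p = 0.206), and neither did Ctsh from Ctsc (0.0804), Ctsc from Ctss (0.703) or Ctss from Ctsz (0.0649). In the IZ the order was Ctsd, Ctsb, Cst3, Ctss, Ctsl, Ctsa, Ctsz, Ctsc, Ctsh and Ctsk. Only Ctsa with Ctsz (exact test, adjusted p = 0.488) and Ctsc with Ctsh (adjusted p = 0.466) were neighbours that did not differ beyond the spread there. Ctss, which shared its place with Ctsc in sham, was above Ctsl in 9 of 9 IZ libraries (exact test, adjusted p = 0.0156). A 3′ end method gives about 1 tag per transcript whatever its length, so CPM is the direct scale for levels between genes. Divided by the exon length of the principal transcript, which runs from 860 bases for Cst3 to 6168 bases for Ctsl, Cst3 came first in both groups with 1404 CPM per kilobase in sham and 1838 CPM per kilobase in the IZ. Ctsd followed with 510 and 1778 CPM per kilobase. Ctss was in place 5 with 27.4 CPM per kilobase in sham and in place 3 with 602 CPM per kilobase in the IZ, next to Ctsb with 593 CPM per kilobase. Ctsk was last on this scale as well, with 4.43 and 30.5 CPM per kilobase.

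The summed cathepsins rose far more than Cst3. The 9 cathepsins together spanned 1640 to 2373 CPM in sham and 8427 to 11423 CPM in 8 IZ libraries, with 3896 CPM in IZ replicate 1. The difference in mean log2 summed CPM was 2.17 (exact two-sided permutation test over 24310 splits, p = 8.23e-05), and 2.32 without IZ replicate 1 (exact p = 1.55e-04). With scaling by total counts alone it was 3.24. Cystatin C was then set against Ctsb, Ctsh, Ctsk, Ctsl and Ctss, cysteine cathepsins that it is known to inhibit. For each count of these 5 genes there were 1.37 to 2.13 counts of Cst3 in sham, 1.09 in IZ replicate 1 and 0.200 to 0.414 in the other IZ libraries. On average 1.70 ± 0.237 in sham (SD, n = 8) thus stood against 0.398 ± 0.270 in the IZ (SD, n = 9). The log2 ratio fell by 2.27 (exact permutation p = 8.23e-05), and by 2.48 without IZ replicate 1. Each of the 9 cathepsins rose against Cst3 when taken alone, by 1.27 for Ctsa to 4.10 for Ctss on the log2 scale, with a largest adjusted p of 0.00116. These are transcripts, and neither protein nor enzyme activity was measured here.

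**Figure D3:**
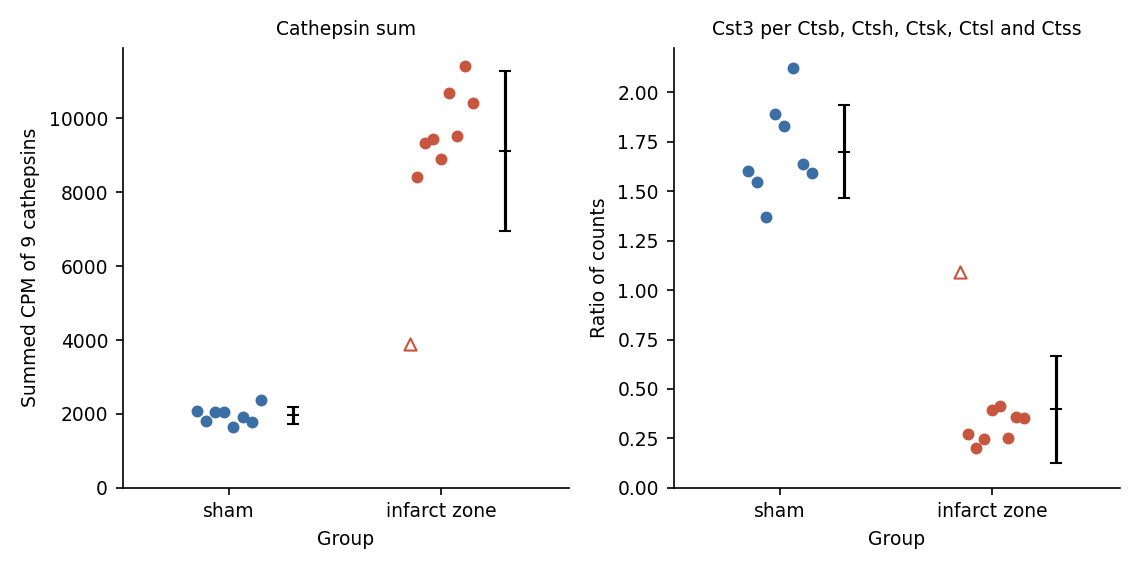
Left, summed CPM of the 9 cathepsins per library, and right, counts of Cst3 per count of Ctsb, Ctsh, Ctsk, Ctsl and Ctss summed, for 8 sham (blue) and 9 IZ libraries (red, replicate 1 as an open triangle), with mean and SD in black. The sum lies between 1640 and 2373 CPM in sham and at 3896 CPM or more in the IZ, and the ratio is at least 1.37 in sham and at most 1.09 in the IZ.

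The list of other cystatins and protease inhibitors gave 7 tested genes out of 22 with a feature. It also holds serpins that act mainly on serine proteases, such as Serpinb9 and Serpinb6b. Of the 7, 5 were called higher, Serpina3g and Ctla2b among them, and 1 lower, against 36.3 and 33.1% of all tested genes. The median log2 fold change was 1.32, against 0.05. Cstb, which encodes the cytosolic inhibitor cystatin B, rose from 35.7 ± 5.20 to 253 ± 70.3 CPM (log2 fold change 2.83, SE 0.20, adjusted p = 3.33e-11), beside 2.52 for the median cathepsin and 0.39 for Cst3. Serpina3g, a serpin that inhibits cathepsins in immune cells, had 0 to 3 counts per sham library and 8 to 98 per IZ library. Ctla2b had 3 to 25 counts per sham library and 35 to 185 per IZ library. Both genes passed the filter only through the IZ, so their calls are not to be read against the 36.3%. The median of the list includes them, and no folds are given for them. Serpinb6b had the lowest log2 fold change of the list, at -0.92 (SE 0.14), and with scaling by total counts alone it was 0.14. Among the other cathepsins only Ctsf and Ctso were abundant enough to be tested. Ctsf, a cysteine cathepsin, went against the others and fell from 32.3 ± 3.56 to 11.3 ± 6.57 CPM (log2 fold change -1.53, SE 0.23, adjusted p = 3.97e-06), with every IZ library below every sham library. Ctso held 18.3 ± 5.91 CPM in sham and 24.4 ± 7.09 CPM in the IZ and did not pass the test (log2 fold change 0.40, adjusted p = 0.0795).

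Genes that deliver, activate or accompany the cathepsins mostly rose, with 10 of 11 called higher and a median log2 fold change of 0.71, against 36.3% called higher and a median of 0.05 over all tested genes. Lgmn, which encodes the asparaginyl endopeptidase legumain that processes several cathepsins, led them and went from 69.6 ± 12.2 to 466 ± 131 CPM (log2 fold change 2.74, SE 0.20, adjusted p = 3.80e-11). Sort1, which encodes the sorting receptor sortilin, was lowest and did not pass the test (log2 fold change 0.02, SE 0.14, adjusted p = 0.927). The mannose 6-phosphate receptor genes and the enzymes that add this tag lay between these ends, as the plot of fold changes shows. Scpep1 had 7 to 31 counts per sham library and 72 to 396 per IZ library. It passed the filter only through the IZ, so its call is not to be read against the 36.3%. The median of the list includes it. The MiT/TFE factors split, with the call of Tfec left out. Tfe3 rose by a log2 fold change of 1.46 (SE 0.20). Tfec had 0 to 5 counts per sham library and 4 to 56 per IZ library, so it passed the filter only through the IZ and its call is not counted here. Mitf fell by 1.69 on the log2 scale (SE 0.15, adjusted p = 1.45e-09). Tfeb, the member best known as a regulator of lysosomal genes, fell by 0.69 (SE 0.18, adjusted p = 0.00179), but it was 0.36 with scaling by total counts alone.

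**Figure D4:**
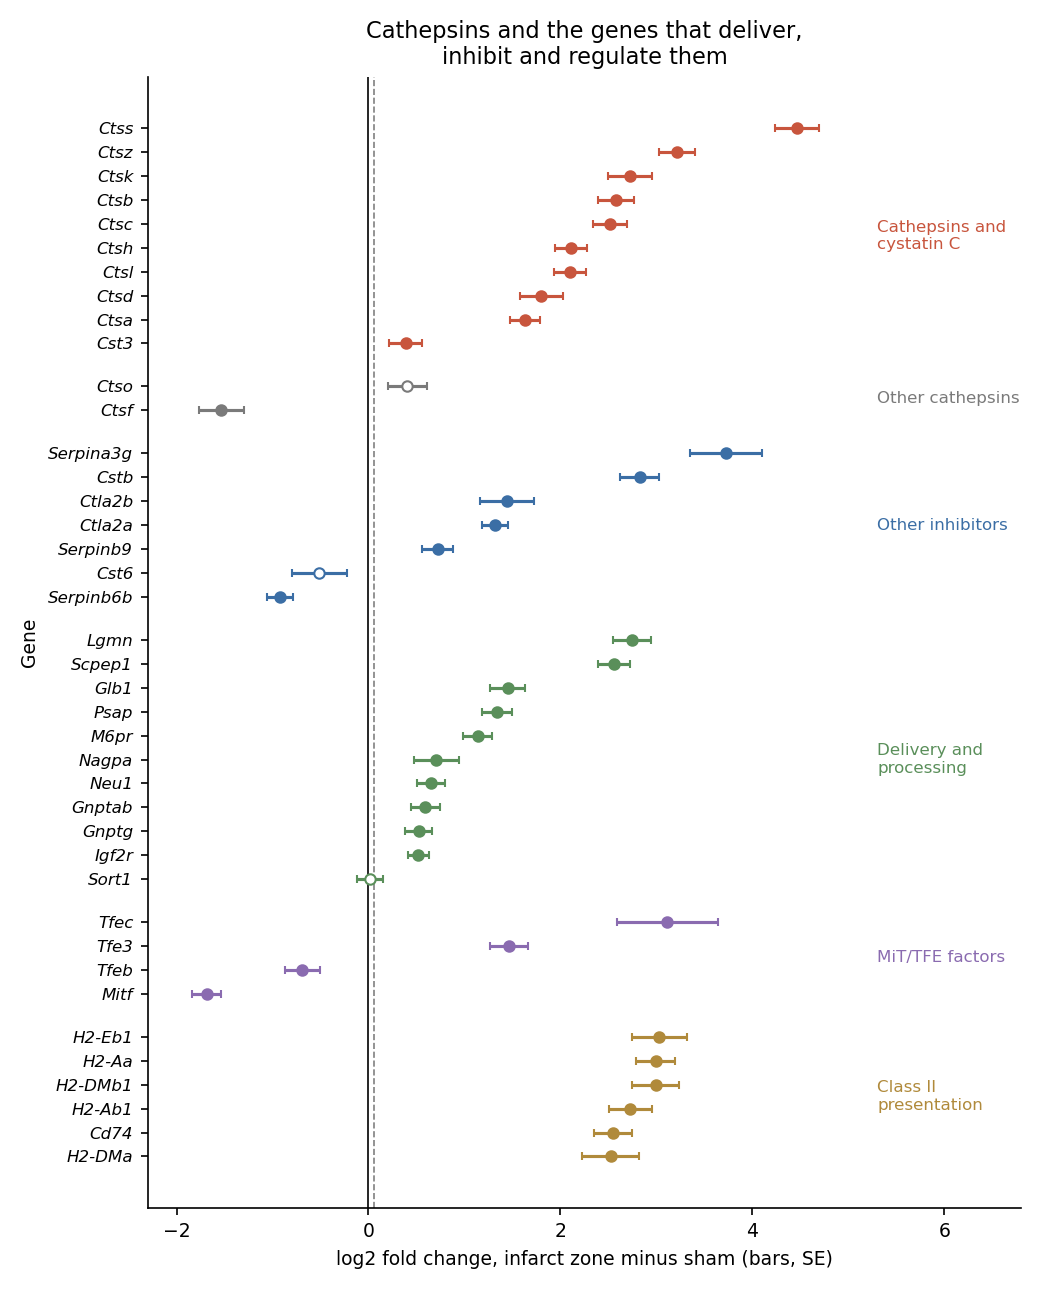
Log2 fold change (IZ minus sham, dots, with SE as bars) of the 10 genes and of tested genes in 5 related lists. Filled dots passed edgeR's test at an adjusted p under 0.05, open dots did not, and the dashed line is the median of all 12301 tested genes (0.05). Ctsk, Serpina3g, Ctla2b, Scpep1, Tfec, H2-DMa and H2-DMb1 passed the filter on low counts only through the IZ. Their dots are drawn with that limit, and their calls are not to be read against the share of all tested genes. Ctss is furthest to the right at 4.46 and Mitf furthest to the left at -1.69.

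Proteins that cathepsins act on were read beside them. Class II antigen presentation, in which Ctss trims the invariant chain Cd74, gave 6 of 6 tested genes higher, against 36.3% of all tested genes, with a median log2 fold change of 2.86. Cd74 itself went from 47.8 ± 17.2 to 278 ± 74.7 CPM (log2 fold change 2.54, SE 0.20). H2-Eb1 was highest with 3.03 (SE 0.29), and H2-Aa and H2-Ab1 lay between it and Cd74. H2-DMa and H2-DMb1 had 3 to 10 and 4 to 12 counts per sham library and 20 to 180 and 57 to 270 per IZ library. They passed the filter only through the IZ, so their calls are not to be read against the 36.3%. The median of the list includes them, and no folds are given for them. IZ replicate 1, lowest of the IZ for Ctss, held the highest summed level of this list, 1485 CPM against 514 CPM in the lowest IZ library. Of 8 extracellular matrix proteins that cathepsins can cut, 8 were called higher, against 36.3% of all tested genes. Lamb1 was lowest with a log2 fold change of 0.94 (SE 0.10). Acan, the highest, had 0 to 3 counts per sham library and 11 to 69 per IZ library. It passed the filter only through the IZ, so its call is not to be read against the 36.3% and no fold is given for it. The summed level of the 8 genes was 1092 to 2329 CPM in sham and 12974 to 22581 CPM in the IZ.

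Markers of cells that enter the infarct moved with the cathepsins. All 10 macrophage markers rose (median log2 fold change 2.97, against 36.3% of all tested genes called higher), and their summed level went from 417 to 605 CPM in sham to 2463 CPM in IZ replicate 1 and up to 5946 CPM in the other IZ libraries. Cd68 was highest with a log2 fold change of 4.09 and Mertk was lowest. Fcgr1, Mertk and Cd14 had 4 to 13, 1 to 19 and 6 to 25 counts per sham library. In the IZ they had 79 to 430, 41 to 250 and 86 to 347 counts per library. They passed the filter only through the IZ, so their calls are not to be read against the 36.3%. The median of the macrophage list includes them, and no folds are given for them. Of 8 neutrophil markers 4 were tested. S100a8 and S100a9 had 1 to 15 and 1 to 11 counts per sham library and 15 to 480 and 5 to 365 per IZ library. Csf3r and Mmp8 had at most 3 and 2 counts per sham library and 19 to 129 and 2 to 61 per IZ library. All 4 could pass the filter on low counts only through the IZ, so their calls are not counted here. The untested Retnlg, Cxcr2, Ltf and Camp had at most 3 counts per sham library and at most 24 per IZ library. The whole list summed to 4.95 to 12.2 CPM in sham and 15.4 to 218 CPM in the IZ. Fibroblast markers rose in 6 of 7 cases, from Dcn (0.04, not called) to Cthrc1 (4.51), and cardiomyocyte markers fell in 8 of 8 cases, from Actc1 (-2.12) to Tnni3 (-4.19). Of the endothelial markers, Kdr (-1.70) and Tek (-0.87) were called lower, and Pecam1, Cdh5, Tie1 and Emcn were not called, with log2 fold changes of -0.35 to -0.04 that turned positive with scaling by total counts alone, as did that of Tek. Of 7 lymphocyte markers only Cd79b and of 6 mast cell markers only Kit were tested, with means of 1.05 and 3.51 CPM in sham and 4.75 and 10.2 CPM in the IZ. Kit alone does not stand for its list, since the mast cell proteases were not tested, with Cma1 at 1.88 and 1.10 CPM and Mcpt4 at 0.986 and 0.276 CPM in sham and the IZ. The part of these cells in the cathepsin values was not tested.

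Set against the macrophage markers, the members did not behave alike. Ctss was 4.29 to 10.5 counts per 100 counts of the summed macrophage markers in sham and 13.3 to 21.6 in the IZ, and it was the only member of 10 that was higher in every IZ library than in every sham library on this scale. Ctsz overlapped, with medians of 6.06 in sham and 5.92 in the IZ, and so did Ctsk and Ctsc. The other 6 were lower in every IZ library than in every sham library. Ctsd went from a median of 223 to 80.4 counts per 100 macrophage marker counts, Ctsb from 96.1 to 63.3 and Cst3 from 249 to 31.9. Cells other than macrophages also express these genes, and the ratio is a description of the tissue.

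How the members varied among the 9 IZ hearts was examined by Pearson and Spearman correlation of log2 CPM with exact permutation p values over 362880 pairings, adjusted over 45 pairs. Of the 45 pairs 6 passed the threshold, 4 by rank. These 4 pairs also passed without IZ replicate 1, each with an adjusted p of 0.0405 over 40320 pairings. They formed 2 sets of genes. Ctsa, Ctsd and Ctsz varied together, with r = 0.95 for Ctsa and Ctsd (rho 0.93, adjusted p = 0.00220), 0.95 for Ctsa and Ctsz and 0.98 for Ctsd and Ctsz, and with 0.90, 0.91 and 0.92 without replicate 1. Ctsb and Ctsh varied together, with r = 0.89 (rho 0.90, adjusted p = 0.00220) and 0.86 without replicate 1. Without the 2 libraries farthest from the median on the x axis these values of r were 0.82 to 0.89, and no pair passed the adjusted threshold with 7 libraries.

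Between a gene of the one set and a gene of the other, r was 0.41 to 0.78 over 9 libraries and -0.35 to -0.03 once replicate 1 was left out. Ctsd and Ctsb were at 0.78 and -0.07 in turn, and the median over all 45 pairs went from 0.66 to 0.04. The library values show the split. Replicates 6, 7 and 8 were the highest for Ctsd, at 5221, 4465 and 5212 CPM, and of these only replicate 8 was among the highest for Ctsb, where the others held 2663 and 2596 CPM. Replicate 3 was near the bottom for Ctsd with 3159 CPM and near the top for Ctsb with 3387 CPM. Against the total count of the library Ctsa, Ctsd and Ctsz had rho of -0.70, -0.70 and -0.60 and Ctsb and Ctsh 0.37 and 0.28 over the 9 libraries. None of the 10 members passed an adjustment over the 10 relations with r (exact permutation test, lowest adjusted p = 0.605). Without replicate 1, r with the total count was -0.65, -0.74 and -0.62 for Ctsa, Ctsd and Ctsz and 0.35 and 0.39 for Ctsb and Ctsh (lowest adjusted p = 0.242 by the exact test). The part of depth in the 2 sets was not tested further.

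**Figure D5:**
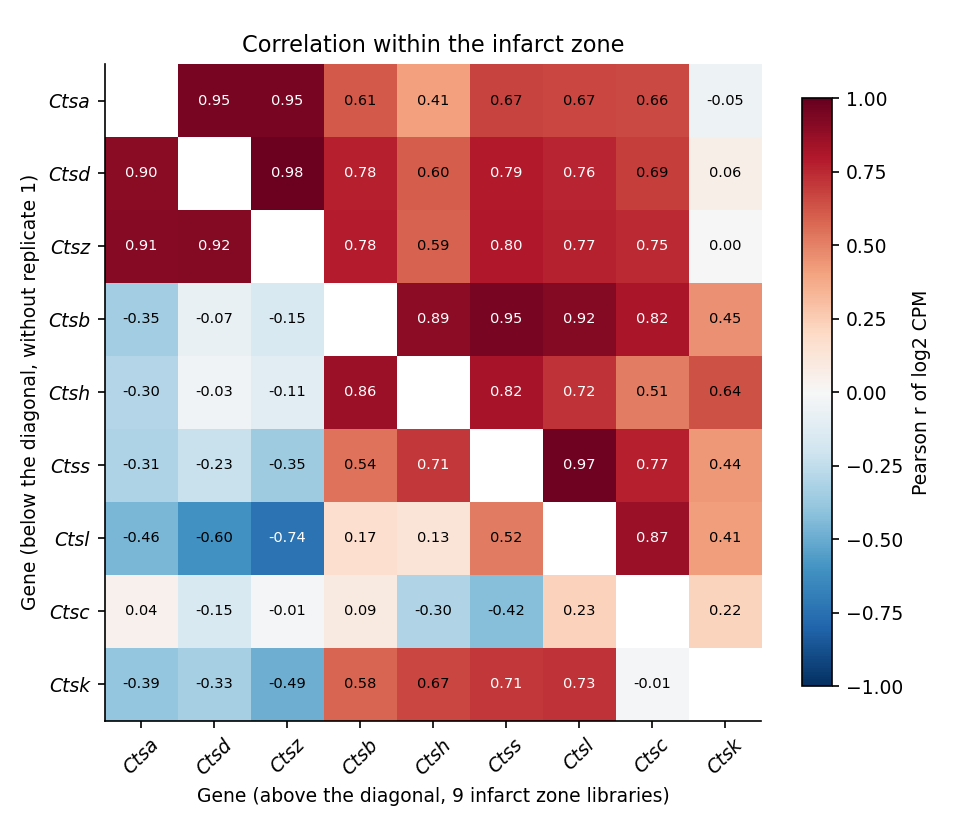
Pearson r of log2 CPM between the 9 cathepsins in the IZ, above the diagonal over 9 libraries and below it over 8 libraries without replicate 1. Ctsa, Ctsd and Ctsz stay at 0.90 or above on both sides, Ctsb with Ctsh goes from 0.89 to 0.86, and Ctsd with Ctsb goes from 0.78 to -0.07.

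Members were also set against summed marker lists of 4 cell types in the same libraries. Of 40 relations 7 passed the threshold over 9 libraries, and 0 passed without replicate 1, where the smallest adjusted p was 0.181. Ctsb and Ctsh followed the macrophage markers, with r = 0.96 (rho 0.90, adjusted p = 0.00937) and 0.93 (rho 0.93, adjusted p = 0.00683), and r remained 0.82 and 0.87 without replicate 1. Ctss had r = 0.92 with the same list and 0.61 without replicate 1. Ctsd was at 0.82 and 0.33 in turn. Ctsc followed the neutrophil markers, with r = 0.89 (rho 0.87, adjusted p = 0.0114) and 0.82 without replicate 1, and it also had r = -0.91 with cardiomyocyte markers (adjusted p = 0.0380, and -0.62 without replicate 1). Fibroblast markers passed with no member. The other 2 relations past the threshold were those of Cst3 with neutrophil and cardiomyocyte markers, for which no pooled r is given because the Cst3 values fell in 2 ranges.

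The genes whose log2 CPM was most like that of each member over the 9 IZ libraries were sought among 9287 genes that averaged 10 CPM or more. For Ctsb the nearest was Npc2 (r = 0.988, and 0.964 without replicate 1), which encodes a cholesterol carrier of the lysosome, followed by Gm26623 and Fermt3. Genes near Ctsc included Mrc1 (0.971) and Tgfbi (0.968). Ctsa was nearest to Fau (0.989), a gene whose product includes a ribosomal protein, then to Gm15745 and Anpep. Ctsd was nearest to Rps19-ps8 (0.986), then to Cebpa and Gm20568, and Ctsz to Gm5879 (0.981), Gm20568 and Rtcb. Ctsh was nearest to Rpl39 (0.972), Gm12411 and Bcl2a1d. Ctsk was nearest to Tmem9b (0.956), Pdcd10 and Ap3m1. For Ctsl they were Selenof (0.980), C3ar1 and Gm14328, and for Ctss Anxa1 (0.980), Rpl35a-ps3 and Anxa2, but these 6 values fell to 0.577 to 0.748 without replicate 1. Cst3 was nearest to Thbs4 (0.962), Apool and Lrrc10, of which Lrrc10 is a cardiomyocyte gene. With so many genes and 9 libraries, a high r for the nearest gene is a description only.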

How the data were processed

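RNA of 8 sham left ventricles and 9 infarct zones was analysed, 1 library per mouse, grouped by the labels, which give no batch. Per the methods of the study, MACE libraries with molecular identifiers were sequenced, trimmed with Cutadapt and mapped to mm10, and the authors deposited raw counts per gene from HTSeq, with no normalization. The labels also name bcl2fastq, Bowtie2 and DESeq2. The annotation release and strand setting are not given in the sources used here.

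All genes were fitted with edgeR 4.0.16 in R 4.3.3 (TMM scaling, filterByExpr with a minimum of 10 counts, two-sided quasi-likelihood F-test, Benjamini-Hochberg adjustment over 12301 genes, threshold 0.05). Adjusted p values come from this fit unless another test is named, and fold changes are IZ over sham. Log2 CPM used a prior count of 1. Sums, ratios, orders and correlations were tested by exact two-sided permutation (Python 3.11.15, NumPy 2.4.6, SciPy 1.17.1). On simulated data for this comparison (10774 genes), 73.5% of 200 genes changed by 1 on the log2 scale were called, and 5.16% of calls were unchanged genes. Only these 200 genes changed there, with as many up as down, whereas 69.5% of tested genes were called in the data. The simulation therefore cannot gauge errors that come from a shift in composition. Gene positions and exon lengths came from GENCODE M21, and similar transcript ends from BLAST 2.17.0. Plots were made with Matplotlib 3.10.9.

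The 10 genes, the lists and the tests were chosen with earlier results of these data known. Named are the tested genes with the highest and lowest log2 fold change of each list, all tested genes of lists with 6 or fewer, and the 3 genes with the highest r to each of the 10. A gene that this rule names for Ctsc is not reported here. Cstb, Serpinb9, Ctla2b, Scpep1, Fcgr1, Cd14, untested genes of the lists, and genes that overlap a cathepsin lie outside this rule. They were named after their values were seen. Of 147 listed genes, 12 lack a feature and were not analysed here. Alternatives varied the scaling (size factors of DESeq2, upper quartiles, total counts), the test (DESeq2 1.42.0), the filter (none, or a minimum mean of 50 counts), the mitochondrial features, the depth (thinning), the replicate block and the libraries. Relations to total counts, correlations with a single library left out and a fit of 16 libraries with no block were added after seeing the data.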

Additional observations from a re-analysis of the deposited data

Results flagged for a closer look

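Of 42 groups of values checked for a library far from the others by Dixon's criterion, 10 were flagged, and chance alone flags about 1 in 20 groups. Of these, 7 were IZ replicate 1. It was far below the other 8 IZ libraries for Ctsb (1249 CPM, others 2596 to 3430), Ctsl (266.7 CPM, others 630 to 812), Ctss (328.1 CPM, others 702 to 950) and the summed cathepsins (3896 CPM, others 8427 to 11423). The 10 genes took 0.638% of its counts and 1.48 to 1.87% of the counts in the others. It was far above the other IZ libraries for the ratio of Cst3 to the 5 cysteine cathepsins (1.091, others 0.200 to 0.414) and for the summed cardiomyocyte markers (27310 CPM, others 2805 to 6599). Every one of the 9 cathepsins still passed the test without this library.

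Sham replicate 3 was far above the other sham libraries for Ctsh (71.37 CPM, others 35.8 to 48.4) and also for the summed macrophage markers (605.5 CPM, others 417 to 503). Sham replicate 4 was far below the other sham libraries for the summed lymphocyte markers (0.552 CPM, others 2.57 to 4.34).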

How the results depend on the processing

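The 9 cathepsins stayed above the threshold and higher in the IZ in all 27 alternatives of the fit. The log2 fold change of Cst3 stayed positive, from 0.28 to 1.44, but its call was kept in 11 of 27. The fit of 16 libraries with no replicate block is the same as the fit without IZ replicate 9. Both are counted among the 27, and Cst3 lost its call in both. With 1 library left out, the 10 genes gave 9 to 10 calls, all genes 7962 to 8614 calls (4153 to 4522 higher, 3807 to 4238 lower), the summed cathepsins a log2 difference of 2.12 to 2.32, the log2 ratio of Cst3 to the cysteine cathepsins a change of -2.48 to -2.17, the pairs of members 33 to 37 past the threshold, and the listed genes 47 to 54 higher and 14 to 16 lower. Scaling by total counts alone moved the median of all genes by 1.08 and the summed cathepsins to 3.24 on the log2 scale and gave 9176 genes higher and 1534 lower, so 85.7% of its calls were higher against 52.3% in the fit reported. Upper quartile scaling moved the median by 0.11. A minimum mean of 50 counts tested fewer genes and called 5239 (2747 higher, 2492 lower).

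Correlations within the IZ depended most on the libraries used. Of the 45 pairs of members, 6 passed, against 10 with total counts alone, 0 without the 2 libraries farthest from the median, and 4 to 6 with 1 library left out. Of the 40 relations to marker lists, 7 passed, against 4 with total counts alone, 0 without the 2 farthest libraries, and 0 to 6 with 1 library left out, with 0 without replicate 1, 3 without replicate 6 and 4 without replicate 5 or replicate 9. Fewer libraries also raise the smallest p that can be reached, and the cause was not tested further.

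Sham and IZ mice share replicate numbers. With the number as a replicate block, 7884 genes were called on 16 libraries, against 8153 on the same libraries without it. The 9 cathepsins kept their calls, and Cst3 had a log2 fold change of 0.33 with an adjusted p of 0.121 by edgeR, after 0.37 with 0.0665 on the same libraries without the block, where its call was already lost. Libraries of the same number did not deviate together (r from -0.216 to 0.128), and 1 of 8 correlated best with its own number, so the number was not treated as a pairing.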
